A study of Mus musculus with 9 samples.

Results

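The genes described here are 38 mouse genes of the NRF2 and antioxidant system, among 24063 gene symbols measured. They were taken by name: the regulators Nfe2l2, Keap1 and Bach1, the quinone reductase Nqo1, 5 genes of NADPH supply, 11 of the thioredoxin system, 12 of the glutathione system, 4 for the dismutases and catalase, and the 2 ferritin chains. Their RNA was read in C2C12, an established line of wild-type mouse myoblasts that fuse into muscle fibres once serum is withdrawn, here in DMEM with 2% fetal bovine serum. All libraries carry the time label day 3. The 1C-MIM group (3 libraries) was given the One-Carbon Metabolite Induced Medium, with 6 added metabolites linked to the folate and methionine pathways that pass on single-carbon units. The scramble group (3 libraries) was given 6 metabolites from outside that network, and the control group (3 libraries) normal medium. All 9 libraries come from 1 cell line, and separate cultures are not stated, so a p-value here reflects the spread between libraries alone, which may be technical.

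NRF2, encoded by Nfe2l2, is a transcription factor that KEAP1 holds in the cytoplasm and hands to the proteasome. When oxidants or electrophiles modify KEAP1, NRF2 escapes, pairs with small MAF proteins and binds antioxidant response elements, sites from which BACH1 otherwise represses. Its targets make NADPH, and NADPH feeds the thioredoxin and glutathione systems that reduce peroxides. Ferritin stores iron that would otherwise react with peroxide, and in muscle these enzymes handle the oxidants made by contraction and respiration.

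Each gene was represented by its transcript with the highest mean count. Counted this way, the libraries held 28.95 to 30.3 M counts in 1C-MIM, 29.1 to 31.8 M in scramble and 31.2 to 33.2 M in control. Of 14 muscle fibre markers, none was below 0.5 CPM (counts scaled to the normalised library size) in every library, and their summed level was 9996 to 12070 CPM in 1C-MIM, 8316 to 10900 CPM in scramble and 7341 to 12320 CPM in control. Against control 3 of them were called higher in 1C-MIM and 2 lower, and of 8 markers of myoblasts and reserve cells 5 were called higher and 1 lower, where 47.3% of all tested genes were called. The library numbered 1 was the highest of its group, in all 3 groups, for every fibre marker but Tnnt3 and Mylpf. Ttn, the giant spring protein of the sarcomere, had 569.7, 518 and 465.5 CPM in 1C-MIM, 566, 249.7 and 274.5 CPM in scramble and 1001, 248 and 182 CPM in control. Without the 3 libraries numbered 1, 9 fibre markers were higher and 2 lower against control, and 7 higher and 2 lower against scramble, where 56.5% and 55.2% of all genes were called. The library numbered 1 had the lowest of its group's 3 levels for 17 of 37 genes in 1C-MIM, 19 in scramble and 28 in control. Its median log2 difference from the other 2 in control was -0.13 over the 37 genes, beside -0.003 over all tested genes. That difference over the 37 was -0.03 in 1C-MIM and -0.06 in scramble, beside 0.01 and -0.002 over all tested genes. The main counts are therefore also given without these 3 libraries.

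Per transcript length, the ferritin heavy chain gene Fth1 had the highest level of the 38 genes, with 2131 ± 18.2 TPM in 1C-MIM, 1525 ± 47.7 TPM in scramble and 1423 ± 69.9 TPM in control (TPM, length-scaled transcript levels as deposited, mean ± SD, n = 3). These are values of a non-coding RefSeq record of Fth1, the one with more counts. Its coding record stood at 3419 ± 29.1 TPM in 1C-MIM, 2447 ± 76.5 TPM in scramble and 2282 ± 112 TPM in control. The light chain gene Ftl1 came second, at 769 ± 38.6 TPM in 1C-MIM, 1089 ± 39.7 TPM in scramble and 1070 ± 105 TPM in control. Over all 9 libraries the next mean levels were those of the peroxiredoxin Prdx2 (625 TPM), the lipid peroxidase Gpx4 (477 TPM), Prdx1 (444 TPM), Prdx5 (442 TPM) and the cytosolic dismutase Sod1 (429.8 TPM). From Ftl1 down to Gpx3, each gene's range over the 9 libraries overlapped that of the next, but these ranges pool groups that differ in level. Prdx2 averaged 757.9 TPM in 1C-MIM, close to Ftl1, but 557.8 TPM in scramble and 558.4 TPM in control, far below it. Gpx4 averaged less than Prdx2 in every group, with 516.7 TPM in 1C-MIM, 456.9 TPM in scramble and 456.7 TPM in control. The pooled overlap therefore does not decide the order of neighbours within a group. At the other end stood the cystine transporter Slc7a11, with a mean of 5.03 TPM, the mitochondrial thioredoxin reductase Txnrd2, with 12.8 TPM, and Nqo1, with 13.6 TPM. Gpx7, a peroxidase of the endoplasmic reticulum, lay between 0 and 0.411 TPM and was too low to be tested. The 38 genes together summed to 8401 ± 176 TPM in 1C-MIM, 7643 ± 128 TPM in scramble and 7435 ± 249.5 TPM in control.

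**Figure D1:**
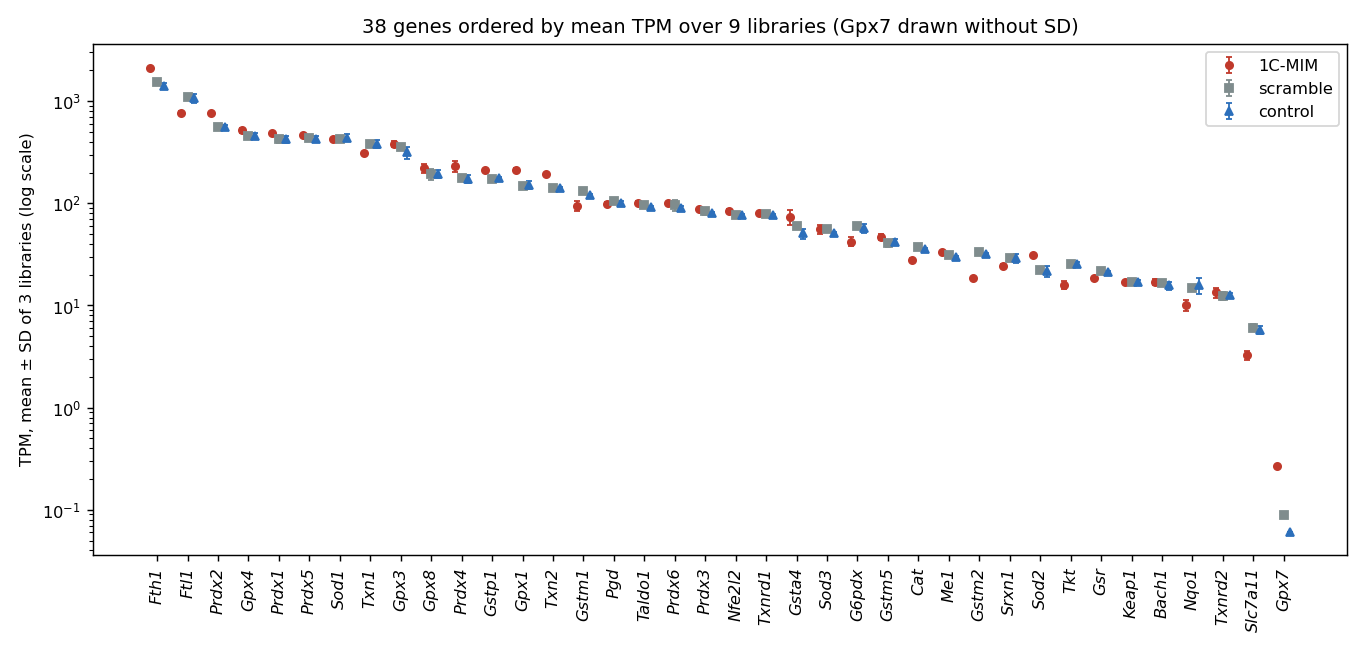
Mean ± SD of the deposited TPM values (vertical, log scale, n = 3) for the 38 genes, ordered from left to right by their mean over 9 libraries, in 1C-MIM (circles), scramble (squares) and control (triangles). Fth1 stands highest in every group, at 2131 TPM in 1C-MIM, 1525 TPM in scramble and 1423 TPM in control, and Slc7a11 is the lowest of the tested genes.

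In 1C-MIM fibres, 22 of the 37 tested genes differed from control, 11 of them higher and 11 lower, against a background of 47.3% of all 14006 tested genes (22.9% higher and 24.3% lower). Calls rest on an adjusted p below 0.05 in edgeR's quasi-likelihood test, with Benjamini-Hochberg adjustment over all tested genes. The median log2 fold change of the 37 was 0.09, beside -0.01 over all tested genes. The levels of 1C-MIM and control did not overlap for 24 of the 37, against 55.5% of all genes. Against scramble, 18 of the 37 were called, 7 higher and 11 lower, where the background was 46% (22.9% higher and 23.2% lower), and their levels did not overlap for 23, against 59.5% of all genes. All 18 were also called against control in the same direction, but the comparisons share the 1C-MIM libraries, so the second is no independent repeat. Gpx3, Gsta4, Me1 and Taldo1 were called higher against control alone.

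**Figure D2:**
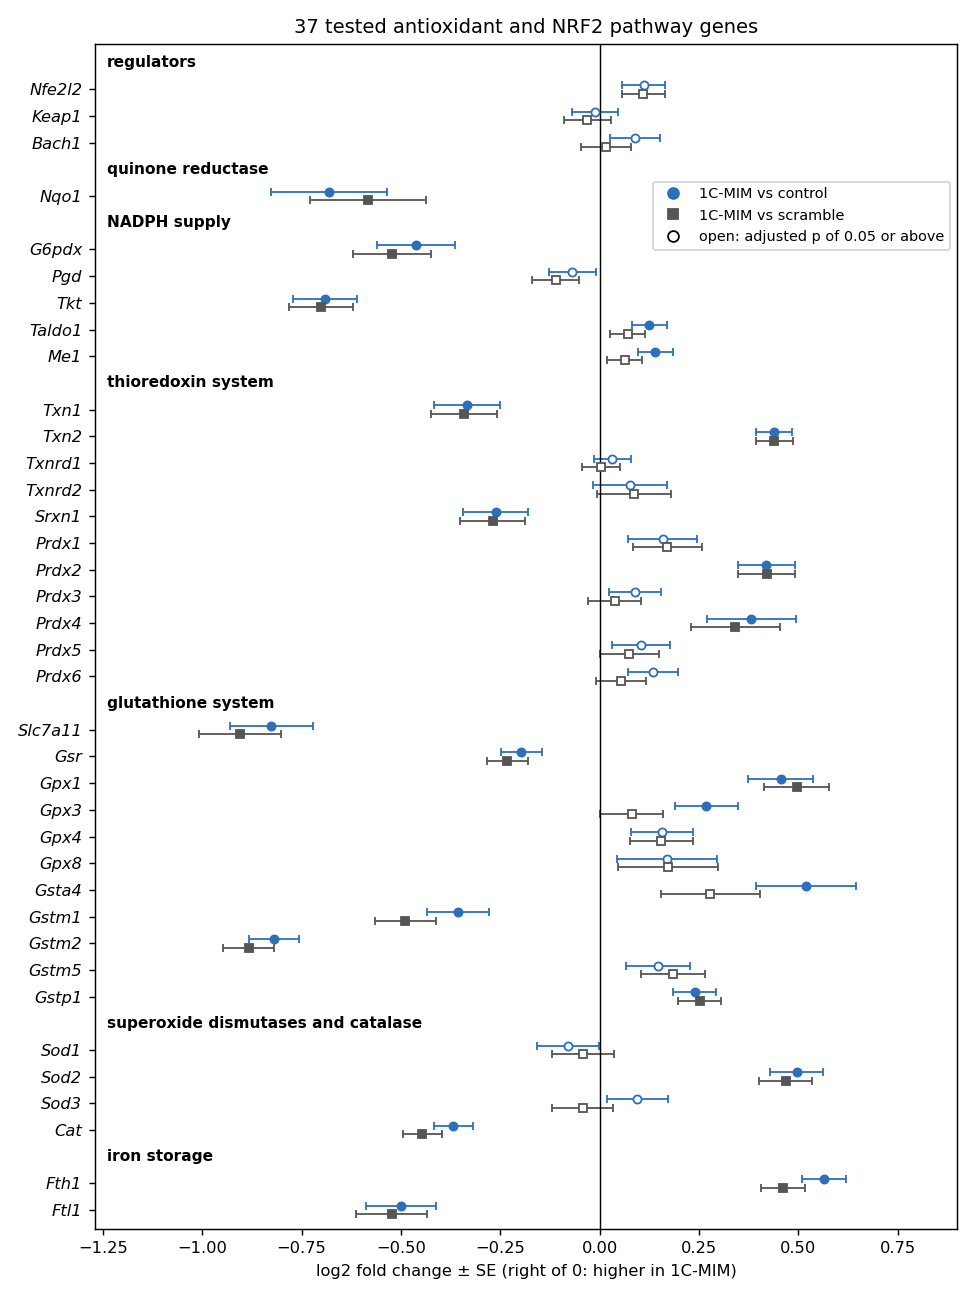
Log2 fold change ± SE (horizontal) of 1C-MIM over control (circles) and over scramble (squares) for the 37 tested genes, by role. Open symbols did not pass the adjusted p of 0.05. Within the glutathione, thioredoxin and ferritin groups, called genes lie on both sides of 0, from -0.83 for Slc7a11 to 0.56 for Fth1 against control.

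Against control, 4 of the 37 were called and passed 1.5-fold (Slc7a11, Gstm2, Tkt and Nqo1, all lower), against 16.1% of all genes. Without the 3 libraries numbered 1, the calls against control came to 30 (17 higher and 13 lower, with 56.5% of all genes called) and those against scramble to 26 (14 higher and 12 lower, with 55.2%). Those gained in both were Nfe2l2, Prdx1, Prdx6, Gpx4, Gpx8 and Gstm5, all higher, and Pgd, lower. Bach1 (higher) and Sod1 (lower) were gained against control alone and Gsta4 (higher) against scramble alone, while Taldo1 was lost against control. The cells differed in other respects too. All 15 markers of cycling cells were lower in 1C-MIM than in either other group, with a summed level of 1062 to 1287 CPM in 1C-MIM, 2036 to 2401 CPM in scramble and 1867 to 2448 CPM in control. Of 6 tested fibroblast-type markers, 5 were higher than in control and 4 higher than in scramble, and all 8 on the list, mainly collagens, summed to 19220 to 19530 CPM in 1C-MIM, 10230 to 10990 CPM in scramble and 8906 to 9792 CPM in control. Most of that sum was Col3a1, at 15390 CPM in 1C-MIM, 6922 CPM in scramble and 6193 CPM in control. Col1a1 had 835 CPM in 1C-MIM, 883 CPM in scramble and 780 CPM in control. Of that list Thy1 and Tcf21 stayed below 0.5 CPM in every library. The part of these shifts in the results on antioxidant genes was not tested, and in bulk RNA fewer cells of a type and less RNA per cell cannot be told apart. Of 7 macrophage markers 5 were below 0.5 CPM in every library (Ptprc, Adgre1, Aif1, C1qa and Lyz2), and neither Cd68, at about 2 CPM, nor Csf1r was called. Of 5 endothelial markers 4 were below it (Pecam1, Cdh5, Kdr and Tie1), while Tek averaged 0.928 CPM in 1C-MIM, 0.342 CPM in scramble and 0.299 CPM in control and was called higher in 1C-MIM in both comparisons. Of 6 adipocyte markers 5 were below it (Adipoq, Plin1, Cidec, Lep and Fabp4), and Pparg, at 6.69 ± 0.394 CPM in 1C-MIM, 7.595 ± 0.655 CPM in scramble and 7.59 ± 0.516 CPM in control, was not called. The summed endothelial level was 0.916 to 1.17 CPM in 1C-MIM, 0.373 to 0.532 CPM in scramble and 0.5035 to 0.898 CPM in control.

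None of the 3 regulators passed the test. Nfe2l2, which encodes NRF2 itself, had 140.1, 147.5 and 156 CPM in 1C-MIM, 139, 136 and 135.5 CPM in scramble and 128.5, 144 and 138.5 CPM in control. Its 1C-MIM levels lay above all scramble levels and overlapped those of control, with a log2 fold change ± SE of 0.11 ± 0.05 against control (adjusted p = 0.118) and 0.11 ± 0.05 against scramble (adjusted p = 0.121), and a 95% interval of -0.01 to 0.23 against control. Keap1, the inhibitor, had 55.3, 54.2 and 52.1 CPM in 1C-MIM, 55.5, 52.1 and 57.6 CPM in scramble and 52.4, 52.6 and 57.95 CPM in control, with a 95% interval of -0.14 to 0.12 for the log2 fold change against control. Bach1, the repressor, had 64.7, 73.1 and 73.8 CPM in 1C-MIM, 71.7, 69.95 and 67.5 CPM in scramble and 70.3, 63.1 and 65.4 CPM in control, and the 1C-MIM values overlapped those of both other groups. When the 3 libraries numbered 1 were left out, Nfe2l2 was called higher against control (log2 0.10, adjusted p = 0.0387) and scramble (log2 0.16, adjusted p = 0.00307), and Bach1 against control (log2 0.19, adjusted p = 0.00123).

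Nqo1, a 2-electron quinone reductase and a standard readout of NRF2 activity, fell in 1C-MIM. It had 9.65, 12.3 and 11.4 CPM in 1C-MIM, 15.75, 17.65 and 16.6 CPM in scramble and 13.7, 20.75 and 19.1 CPM in control. All 3 1C-MIM values lay below all 6 others, and control replicate 1 was the lowest of its group. The log2 fold change was -0.68 ± 0.15 against control (adjusted p = 0.00312) and -0.58 ± 0.15 against scramble (adjusted p = 0.00799).

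To show what the NRF2 site looks like in these genes, promoters from RefSeq (GRCm38.p6, 250 bases before to 50 after the gene start) were searched on both strands for TGACNNNGC, the core of the antioxidant response element. Of 34 of the 38 genes with a promoter in the table, 9 held it (26.5%), as did 13.99% of all 27025 genes: G6pdx, Gstm5, Me1, Nfe2l2, Pgd, Prdx1, Sod1, Srxn1 and Txnrd1. A match is a string of letters and not a binding site. Of these 9 genes 3 were called against control, where 47.3% of all tested genes were called. G6pdx and Srxn1 were lower and Me1 higher, and Me1 was not called against scramble. The 250 bases before the start are shown for G6pdx, which fell, and Prdx1, which was not called, with the match in capitals. Shorter windows are shown for 2 genes called in opposite directions (Srxn1 and Me1) and for Txnrd1 and Nfe2l2, which were not called. All are 5′ to 3′ on the gene's strand, so a match on the other strand appears as its reverse complement.
G6pdx, chrX:74428881-74429130, minus strand: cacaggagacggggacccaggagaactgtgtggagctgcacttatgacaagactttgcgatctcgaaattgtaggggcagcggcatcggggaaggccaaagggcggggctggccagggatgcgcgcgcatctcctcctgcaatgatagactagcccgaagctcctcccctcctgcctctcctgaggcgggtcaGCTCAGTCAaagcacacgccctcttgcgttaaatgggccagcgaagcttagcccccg
Prdx1, chr4:116685349-116685598, plus strand: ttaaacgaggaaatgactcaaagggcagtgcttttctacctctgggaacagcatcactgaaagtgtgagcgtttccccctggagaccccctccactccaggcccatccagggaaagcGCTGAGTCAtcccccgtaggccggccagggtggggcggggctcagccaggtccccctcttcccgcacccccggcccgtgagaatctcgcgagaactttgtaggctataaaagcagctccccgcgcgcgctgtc
Srxn1, chr2:152105542-152105570, plus strand: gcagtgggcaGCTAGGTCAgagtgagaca
Me1, chr9:86695902-86695930, minus strand: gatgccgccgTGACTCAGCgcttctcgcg
Txnrd1, chr10:82859104-82859132, plus strand: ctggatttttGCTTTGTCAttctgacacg
Nfe2l2, chr2:75704885-75704913, minus strand: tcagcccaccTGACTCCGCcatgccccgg
The matches of Me1 and Prdx1 also contain TGANTCA, the letters that AP-1 factors bind, which 8.97% of all genes hold in this window. Relative to the gene start, the match of Nfe2l2 began at position -240, that of G6pdx at -57, that of Prdx1 at -133 and that of Srxn1 at 29.

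Among the genes of NADPH supply, the changes ran in both directions. Tkt, the transketolase that links the pentose phosphate pathway to glycolysis, had 39.2, 37.1 and 32.8 CPM in 1C-MIM, 56.9, 57.0 and 63.3 CPM in scramble and 53.4, 60.5 and 62.1 CPM in control. No 1C-MIM value reached the lowest of the other groups, and the log2 fold change was -0.69 ± 0.08 against control (adjusted p = 5.66e-05) and -0.70 ± 0.08 against scramble (adjusted p = 5.82e-05). G6pdx, which makes the first NADPH of that pathway, had 86.4, 76.5 and 72.6 CPM in 1C-MIM, 106, 116 and 116 CPM in scramble and 91.2, 115 and 118 CPM in control. The 1C-MIM libraries were again all lower, with a log2 fold change of -0.46 ± 0.10 against control (adjusted p = 0.00301) and -0.52 ± 0.10 against scramble (adjusted p = 0.00152). Pgd, the second NADPH-making step, stood at 155 ± 6.48 CPM in 1C-MIM, 167 ± 3.83 CPM in scramble and 162 ± 12.2 CPM in control, and was not called. Taldo1, the transaldolase of the same pathway, and Me1, the cytosolic malic enzyme, were slightly higher than control, by 0.13 ± 0.04 (adjusted p = 0.0388) and 0.14 ± 0.04 (adjusted p = 0.0225). Against scramble neither passed (adjusted p = 0.222 for Taldo1 and 0.265 for Me1), and both calls were lost when upper quartile or library size scaling replaced TMM. The call of Taldo1 was also lost without any 1 of the 1C-MIM libraries, control replicate 1 or 3, or scramble replicate 2 or 3, and that of Me1 without 1C-MIM replicate 3 or control replicate 2.

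The 2 thioredoxins moved in opposite directions. Txn2, the mitochondrial thioredoxin, rose, with 178, 174.5 and 179.5 CPM in 1C-MIM, 130.2, 134 and 128 CPM in scramble and 126.5, 137.5 and 128.5 CPM in control. Txn1, the cytosolic and nuclear form, fell, with 221, 236 and 234 CPM in 1C-MIM, 269, 299 and 308 CPM in scramble and 251, 309 and 311 CPM in control. For both genes the 1C-MIM values lay outside the range of the other 6. The log2 fold change of Txn2 was 0.44 ± 0.05 against control (adjusted p = 2.68e-05) and 0.44 ± 0.05 against scramble (adjusted p = 2.95e-05). That of Txn1 was -0.33 ± 0.08 against control (adjusted p = 0.00693) and -0.34 ± 0.08 against scramble (adjusted p = 0.00628). The ratio of Txn2 to Txn1 in TPM was 0.632 ± 0.0267 in 1C-MIM, 0.368 ± 0.0279 in scramble and 0.372 ± 0.0379 in control. The reductases that recharge them were not called: Txnrd1 of the cytosol had 200.5, 202 and 198 CPM in 1C-MIM, 203, 199 and 197 CPM in scramble and 184.5, 205 and 198 CPM in control, which overlap throughout, and Txnrd2 of mitochondria averaged 18.15 ± 1.87 CPM in 1C-MIM, 17.1 ± 1.31 CPM in scramble and 17.2 ± 1.202 CPM in control.

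Of the 6 peroxiredoxins, most of which use thioredoxin to reduce peroxide, Prdx2 and Prdx4 were called higher in both comparisons and none lower. Of all tested genes 47.3% were called against control and 46% against scramble. Prdx2, a cytosolic form, had 488, 521 and 513 CPM in 1C-MIM, 351, 388 and 399 CPM in scramble and 343, 394 and 401 CPM in control, and all 3 1C-MIM values lay above the other 6. Its log2 fold change was 0.42 ± 0.07 against control (adjusted p = 0.000708) and 0.42 ± 0.07 against scramble (adjusted p = 0.000737). Prdx2 shares exon sequence with Junb and Rnaseh2a on the opposite strand in GENCODE M21, as G6pdx does with Ikbkg and Prdx5 with Trmt112. Whether the counts used strand is not stated, so reads of such partners cannot be told apart. Prdx4, the form of the endoplasmic reticulum, had 136, 176 and 166 CPM in 1C-MIM, 114, 134 and 129 CPM in scramble and 106, 129.6 and 132 CPM in control. Its log2 fold change was 0.38 ± 0.11 against control (adjusted p = 0.0185) and 0.34 ± 0.11 against scramble (adjusted p = 0.0311), and this call was lost without 1C-MIM replicate 2 or 3 in either comparison, without control replicate 1 against control and without scramble replicate 1 or 3 against scramble. Prdx1, Prdx3, Prdx5 and Prdx6 had log2 fold changes of 0.16, 0.09, 0.10 and 0.13 against control and were not called, although Prdx1 and Prdx6 were without the libraries numbered 1. Srxn1, the sulfiredoxin that repairs overoxidised peroxiredoxins, had 45.8, 51.3 and 49.4 CPM in 1C-MIM, 59.1, 59.7 and 57.8 CPM in scramble and 50.25, 61.5 and 63.9 CPM in control. It fell, with a log2 fold change of -0.26 ± 0.08 against control (adjusted p = 0.0221) and -0.27 ± 0.08 against scramble (adjusted p = 0.0202), although 1 of the 3 1C-MIM values was above control replicate 1. The call was lost when any of 1C-MIM replicates 1 and 3, control replicates 2 and 3 and scramble replicate 2 was left out of a comparison it enters.

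In the glutathione system, Slc7a11 and Gsr fell. Slc7a11, the cystine-importing chain of the xCT antiporter that provides the cysteine for glutathione, had 23.25, 19.2 and 22.2 CPM in 1C-MIM, 37.04, 44.1 and 39.9 CPM in scramble and 33.4, 42.6 and 38.6 CPM in control. The 1C-MIM values were all well below the other 6, and the log2 fold change was -0.83 ± 0.10 against control (adjusted p = 0.000104) and -0.91 ± 0.10 against scramble (adjusted p = 6.39e-05). With that of Gstm2 it was the largest change among the 37 genes in both comparisons. Its partner chain Slc3a2, which also serves other amino acid carriers, had 155, 152.5 and 164 CPM in 1C-MIM, 108, 96.4 and 102.5 CPM in scramble and 102, 101 and 102 CPM in control, and its 1C-MIM values were all above the others. The log2 fold change of Slc3a2 was 0.63 ± 0.05 against control (adjusted p = 6.11e-06) and 0.62 ± 0.05 against scramble (adjusted p = 7.59e-06), so the TPM ratio of Slc3a2 to Slc7a11 was 24.0 ± 2.14 in 1C-MIM, 8.39 ± 1.21 in scramble and 8.82 ± 1.145 in control. Gsr, the reductase that returns oxidised glutathione to its reduced form at the cost of NADPH, fell slightly, with a log2 fold change of -0.20 ± 0.05 against control (adjusted p = 0.0095) and -0.23 ± 0.05 against scramble (adjusted p = 0.00398). It had 36.0, 35.0 and 35.0 CPM in 1C-MIM, 39.45, 42.2 and 43.0 CPM in scramble and 39.8, 39.7 and 42.01 CPM in control, so that all 3 1C-MIM values lay below the other 6, while scramble and control overlapped.

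Of the glutathione peroxidases, Gpx1, the selenium-dependent cytosolic form, had 149, 165 and 157 CPM in 1C-MIM, 105, 117 and 112 CPM in scramble and 98.8, 126 and 118.5 CPM in control. It rose, with a log2 fold change of 0.46 ± 0.08 against control (adjusted p = 0.00102) and 0.50 ± 0.08 against scramble (adjusted p = 0.00062), and the 1C-MIM levels did not overlap the others. Gpx3, the secreted form, was higher against control (0.27 ± 0.08, adjusted p = 0.0165), with 414 ± 28.2 CPM in 1C-MIM, 391 ± 23.8 CPM in scramble and 344 ± 33.4 CPM in control, and was not called against scramble (adjusted p = 0.434). Its call against control was lost without 1C-MIM replicate 1 or control replicate 2. Gpx4, which reduces lipid peroxides in membranes, averaged 372 ± 20.6 CPM in 1C-MIM, 334 ± 23.1 CPM in scramble and 334 ± 31.85 CPM in control and was not called (adjusted p = 0.123 against control), nor was Gpx8 (adjusted p = 0.294).

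The glutathione transferases, which couple glutathione to electrophiles, moved in both directions. Gstm2, of the mu class, had 13.6, 14.3 and 13.2 CPM in 1C-MIM, 24.6, 24.7 and 26.6 CPM in scramble and 23.3, 24.4 and 24.9 CPM in control. The 3 values of 1C-MIM lay close together, far below the rest, and the log2 fold change was -0.82 ± 0.06 against control (adjusted p = 4.4e-06) and -0.88 ± 0.06 against scramble (adjusted p = 3.28e-06). Gstm1 of the same class had 85.3, 98.15 and 78.1 CPM in 1C-MIM, 129, 121 and 117 CPM in scramble and 106, 112 and 117 CPM in control. It fell without overlap, with a log2 fold change of -0.36 ± 0.08 against control (adjusted p = 0.00317) and -0.49 ± 0.08 against scramble (adjusted p = 0.000478). Gstm5, also of the mu class, was not called, at 30.4 ± 2.197 CPM in 1C-MIM, 26.75 ± 2.33 CPM in scramble and 27.5 ± 1.74 CPM in control. Gsta4, the alpha-class enzyme that clears the lipid aldehyde 4-hydroxynonenal, had 41.99, 58.4 and 50.4 CPM in 1C-MIM, 40.55, 43.97 and 39.8 CPM in scramble and 30.5, 40.35 and 34.4 CPM in control. It was higher than control (0.52 ± 0.13, adjusted p = 0.007) and, with overlapping values, not called against scramble (0.28 ± 0.12, adjusted p = 0.0943). Gstp1, of the pi class, averaged 111 ± 4.115 CPM in 1C-MIM, 93.5 ± 5.36 CPM in scramble and 94.3 ± 3.56 CPM in control. It rose, with a log2 fold change of 0.24 ± 0.05 against control (adjusted p = 0.00402) and 0.25 ± 0.05 against scramble (adjusted p = 0.00312). The Gstm genes, Gstp1 (beside Gstp2) and both ferritin genes have close copies in the mouse genome, and reads shared with a copy may have been counted for either, so their values are uncertain to that extent.

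**Figure D3:**
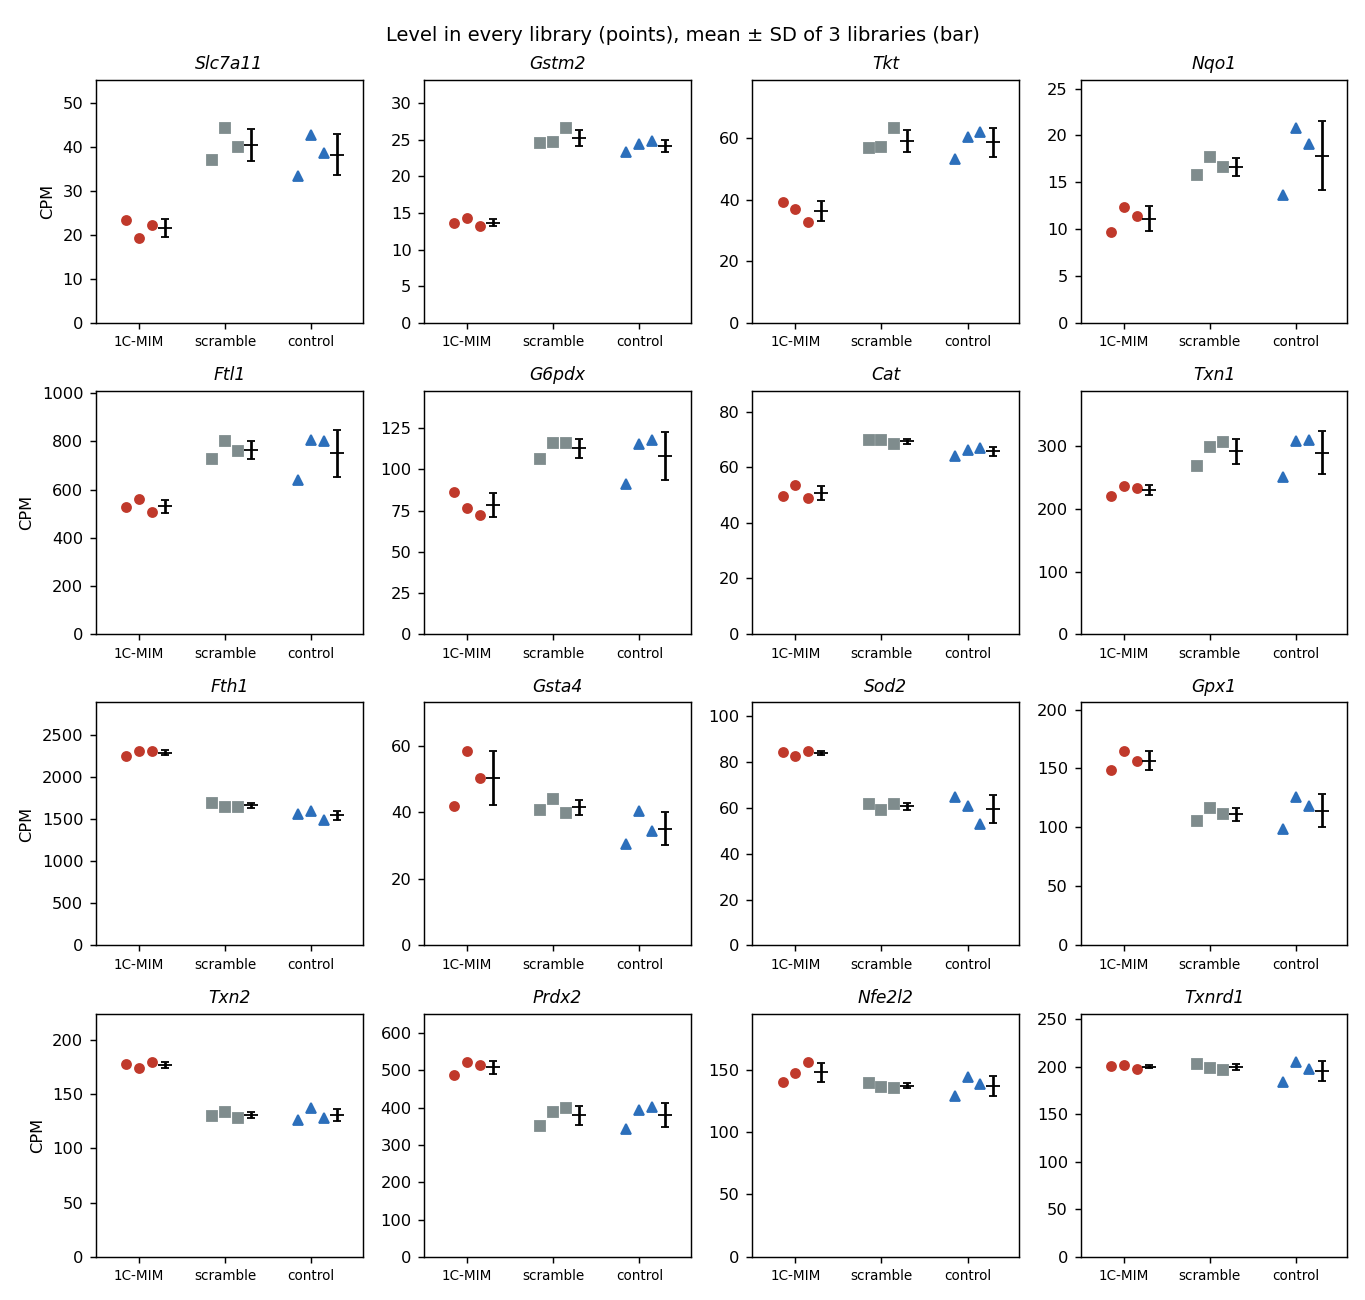
CPM (vertical, from 0) in each library of 1C-MIM (circles), scramble (squares) and control (triangles) for 16 of the 38 genes, with the mean ± SD of 3 libraries as a bar beside the points. In the upper 8 panels the 1C-MIM points lie below both other groups, in the 6 from Fth1 to Prdx2 they are the highest group on average, and for Nfe2l2 and Txnrd1 the differences did not pass the test.

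Of the dismutases, which turn superoxide into hydrogen peroxide, the mitochondrial Sod2 rose and the others were not called. Sod2 had 84.3, 83.0 and 84.9 CPM in 1C-MIM, 61.6, 59.0 and 61.6 CPM in scramble and 64.9, 60.9 and 53.0 CPM in control. The 1C-MIM values lay close together and above all others, with a log2 fold change of 0.50 ± 0.07 against control (adjusted p = 0.000146) and 0.47 ± 0.07 against scramble (adjusted p = 0.000225). Sod1 averaged 194 ± 9.09 CPM in 1C-MIM, 200.3 ± 12.4 CPM in scramble and 205 ± 22.25 CPM in control, with a 95% interval of -0.25 to 0.09 for the log2 fold change against control. Sod3, the extracellular form, had overlapping groups (adjusted p = 0.337 against control). Cat, the peroxisomal catalase that breaks down hydrogen peroxide, had 49.8, 53.7 and 49.1 CPM in 1C-MIM, 69.7, 69.9 and 68.4 CPM in scramble and 63.8, 66.2 and 67.0 CPM in control. It fell, with a log2 fold change of -0.37 ± 0.05 against control (adjusted p = 0.000139) and -0.45 ± 0.05 against scramble (adjusted p = 4.5e-05). Gpx1, which removes the same substrate, moved the other way, and the TPM ratio of Gpx1 to Cat was 7.51 ± 0.2535 in 1C-MIM, 3.91 ± 0.204 in scramble and 4.235 ± 0.431 in control.

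The 2 ferritin chains moved in opposite directions. Fth1, whose product oxidises iron for storage, had 2254, 2309 and 2305 CPM in 1C-MIM, 1692, 1647 and 1649 CPM in scramble and 1566, 1591 and 1489 CPM in control. Ftl1, whose product helps form the mineral core, had 526, 559 and 507 CPM in 1C-MIM, 727, 802 and 759.8 CPM in scramble and 639, 807 and 803 CPM in control. Every 1C-MIM library was above the other 6 for Fth1 and below them for Ftl1. The log2 fold change was 0.56 ± 0.06 against control (adjusted p = 1.81e-05) and 0.46 ± 0.05 against scramble (adjusted p = 7.23e-05) for Fth1. For Ftl1 it was -0.50 ± 0.09 against control (adjusted p = 0.000891) and -0.52 ± 0.09 against scramble (adjusted p = 0.000682). The TPM ratio of heavy to light chain was 2.775 ± 0.136 in 1C-MIM, 1.40 ± 0.0873 in scramble and 1.34 ± 0.202 in control. With the other Fth1 transcript in the files, which had the higher TPM, it was 4.45 ± 0.219 in 1C-MIM, 2.25 ± 0.1400 in scramble and 2.15 ± 0.325 in control. With the first Fth1 transcript, both chains together made up 34.5 ± 0.363% of the summed TPM of the 38 genes in 1C-MIM, 34.2 ± 0.899% in scramble and 33.5 ± 0.5900% in control, and with its coding record 43.2 ± 0.375% in 1C-MIM, 41.3 ± 1.09% in scramble and 40.4 ± 1.01% in control.

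Both ferritin messages carry an iron-responsive element near the 5′ end, a hairpin through which iron regulatory proteins block translation when iron is scarce. The elements are shown as sequence, with the CAGTG of the loop in capitals, and any link to the changes of the 2 RNAs was not tested. The sequences were read from the GENCODE M21 transcripts Fth1-201 (chromosome 19, transcript positions 86 to 114) and Ftl1-201 (chromosome 7, positions 77 to 105).
Fth1: tttcctgcttcaaCAGTGcttgaacggaa
Ftl1: tgtcttgcttcaaCAGTGtttgaacggaa
The letters searched on the transcript's strand, a C, any 5 bases and then CAGTG and any base, occur in the first 250 bases of 10.1% of 58447 protein-coding transcripts, so the string alone is common. Among the 38 genes Keap1, Bach1, Txn2, Txnrd1, Txnrd2 and Gstm2 also hold it, as do 16.8% of all genes with such a transcript.

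**Figure D4:**
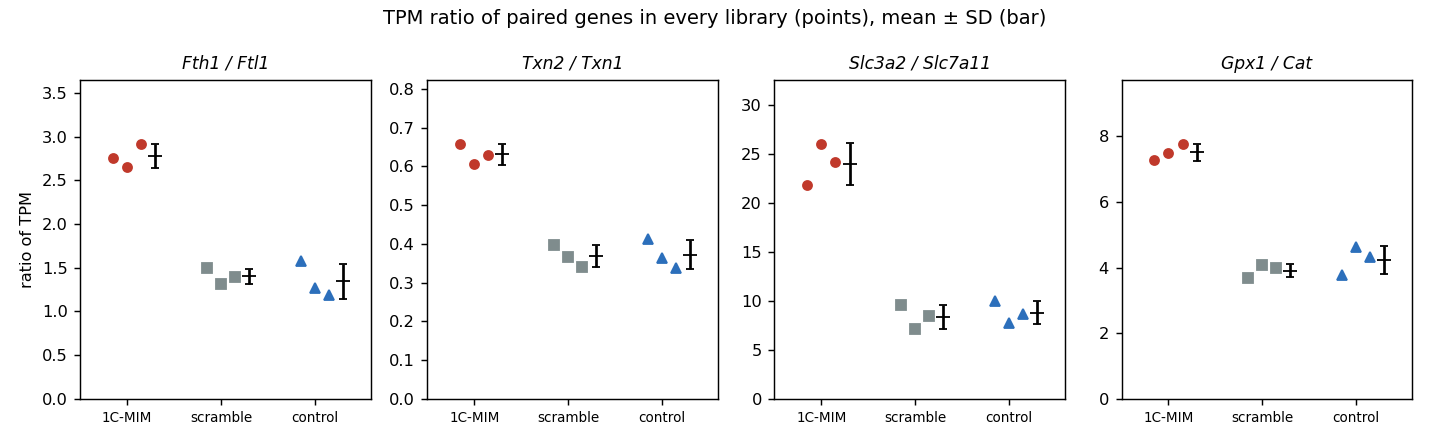
Ratio of the deposited TPM values (vertical, from 0) of Fth1 to Ftl1, Txn2 to Txn1, Slc3a2 to Slc7a11 and Gpx1 to Cat in each library of 1C-MIM (circles), scramble (squares) and control (triangles), with the mean ± SD of 3 libraries beside the points. In all 4 panels the 3 1C-MIM libraries lie above the other 6. The ratios are given as a description, without a test.

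Between scramble and control, edgeR called 0 of the 37 genes and 0.0% of all 14006, and DESeq2 called 0 of the 37 and 0.0286% of all. At an unadjusted p below 0.05 edgeR had 1 of the 37 (Gpx3) and 482 of all genes. DESeq2 had 2 of the 37 and 383 of all genes at that level. The groups did not overlap for 4 of the 37 (Fth1, Cat, Gstm1 and Me1), against 9.09% of all genes. Gpx3 averaged 391 ± 23.8 CPM in scramble and 344 ± 33.4 CPM in control, a log2 difference of 0.19 ± 0.08 (edgeR's adjusted p = 1, with 0.037 before adjustment). It was the 1 gene of the 37 called there without the 3 libraries numbered 1 (log2 0.27, adjusted p = 0.0473, with 0.685% of all genes called).

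Lists of 190 further genes of redox biology were also called in both directions. Of the 167 tested, 49 were higher and 35 lower in 1C-MIM than in control (50.3%, beside 47.3% of all genes), and 44 higher and 36 lower than in scramble (47.9%, beside 46%). Counts of single lists are given first against control and then against scramble, and are to be read beside these shares of all genes. Values of single genes are log2 fold changes ± SE against control unless said otherwise. Among 26 other NRF2 targets, 8 rose and 8 fell against control and likewise 8 and 8 against scramble. Hmox1, the haem oxygenase, rose by 0.20 ± 0.05 on the log2 scale, and the detoxifying enzymes Ephx1, Adh7 and Cbr3 by 0.69 ± 0.06, 0.87 ± 0.08 and 0.74 ± 0.09. The call of Hmox1 was lost in 2 of 23 alternatives against control and in 6 against scramble. Gclm, the modifier chain of the first enzyme of glutathione synthesis, fell to 20.8 CPM in 1C-MIM, against 29.1 CPM in control, a log2 fold change of -0.49 ± 0.08. The catalytic chain Gclc was not called, at 49.9 CPM in 1C-MIM and 54.05 CPM in control. Lrp8, a lipoprotein receptor, fell at a low level, 3.97 CPM in 1C-MIM and 9.94 CPM in control, with a log2 fold change of -1.32 ± 0.16. Of 13 other regulators, 2 rose and 3 fell against control, and 2 and 4 against scramble. Maff, a small MAF partner of NRF2, fell, with a log2 fold change of -0.98 ± 0.13, as did Bach2, a relative of BACH1, with -0.80 ± 0.15. Park7, an oxidant-sensing protein that stabilises NRF2, rose by 0.26 ± 0.05, and Rbx1, a subunit of the ligase that KEAP1 recruits, by 0.22 ± 0.06.

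Of 16 other genes of NADPH supply, NAD phosphorylation and the pentose phosphate pathway, 7 rose and 3 fell against control, and 5 and 3 against scramble. Idh1, the cytosolic isocitrate dehydrogenase, averaged 347 ± 25.8 CPM in 1C-MIM, 217 ± 18.15 CPM in scramble and 211 ± 14.1 CPM in control, a log2 fold change of 0.71 ± 0.08 against control. Me2, a mitochondrial malic enzyme that mainly uses NAD, averaged 55.6 ± 0.710 CPM in 1C-MIM, 84.0 ± 0.689 CPM in scramble and 87.35 ± 0.634 CPM in control, a log2 fold change of -0.65 ± 0.04. Mthfd1, a folate enzyme of the one-carbon network that can make NADPH, rose by 0.26 ± 0.06 on the log2 scale. Of 23 other thioredoxin and glutaredoxin proteins, 9 rose and 5 fell against control and 6 and 5 against scramble, with Sesn3 and Sesn2, stress-induced sestrins, higher by 0.72 ± 0.07 and 0.55 ± 0.07. Of 24 other glutathione enzymes, 4 rose and 5 fell against control, as many as against scramble, among them Chac1, which degrades glutathione, with a log2 fold change of 0.55 ± 0.10, and Mgst3, a microsomal transferase, with -0.89 ± 0.08. Of 20 genes for selenoproteins and their synthesis 7 rose and 2 fell against control and 8 and 2 against scramble, and the leading rises were Selenoo (0.74 ± 0.05), Selenow (0.52 ± 0.06), Selenom (0.51 ± 0.07) and Selenop (0.41 ± 0.06). Of 16 other iron genes 6 rose and 1 fell against control, and 5 and 2 against scramble: Iscu, a scaffold for iron-sulfur clusters, rose by 0.51 ± 0.05, and Pcbp1, which delivers iron to ferritin, by 0.45 ± 0.05. The 1 that fell against control was Steap3, a ferrireductase of endosomes, with -0.59 ± 0.06.

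Of 11 tested genes for superoxide sources, 1 rose and 3 fell against control (36.4% called, beside 47.3% of all genes), and 2 rose and 2 fell against scramble. Among those lower was Nox4, a hydrogen peroxide-making NADPH oxidase, with a log2 fold change of -0.52 ± 0.08. Of 5 tested genes of copper and manganese supply 2 rose against control and 1 against scramble. Ccs, the copper chaperone for SOD1, rose in both, by 0.30 ± 0.06 against control. Atp7a, a copper-exporting ATPase, had 0.17 ± 0.06 against control (adjusted p = 0.042) and was not called against scramble, and the call against control was lost in 11 of 23 alternatives. Of 4 methionine sulfoxide reductases 2 were called and both fell in either comparison, Msra with -0.36 ± 0.10 and Msrb1 with -0.19 ± 0.06. The call of Msra was lost in 2 of 23 alternatives against control and in 8 against scramble. That of Msrb1 was lost in 4 against control and in 2 against scramble. Of 9 tested ferroptosis genes, 3 rose and 3 fell against control, as against scramble. Aifm2, which encodes the ubiquinone reductase FSP1 that protects membranes from lipid peroxides, fell, with -0.76 ± 0.06, and Acsl4, which loads membranes with oxidisable lipids, rose by 0.41 ± 0.06.

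**Figure D5:**
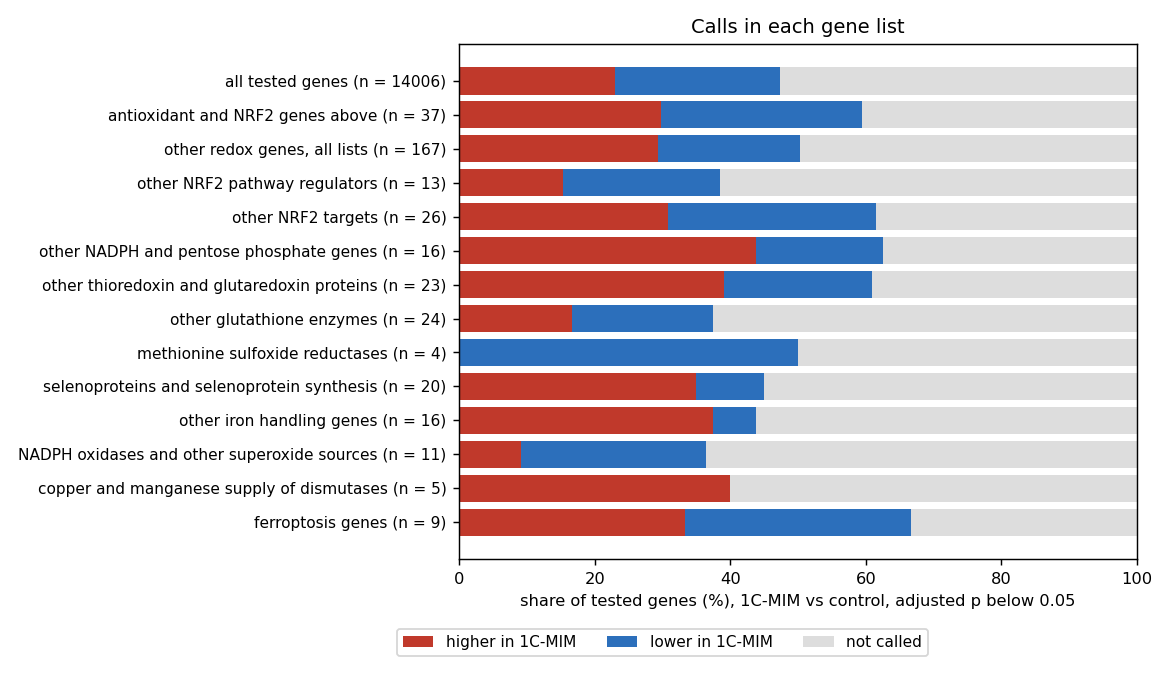
Share of tested genes (horizontal, %) called higher, called lower and not called in 1C-MIM against control, for all tested genes (top bar), the genes of the fold change plot, all further redox lists together and each list. The shares called run from 36.4% for superoxide sources to 66.7% for ferroptosis genes, beside 47.3% of all genes.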

How the data were processed

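Libraries of C2C12 fibres (9 in all, 3 each of 1C-MIM, scramble and control) were analysed from the tables the authors deposited. RNA isolation used an RNeasy kit and library preparation SMARTer mRNA-seq reagents, per the labels' protocols. Among the tools in the submitters' processing notes are STAR, Salmon 1.5.2, featureCounts (Subread 2.0.1), StringTie 2.2.1 and DESeq2 1.28.0, with the build GRCm39 and no roles. The tool behind each value, and any use of strand, are not stated. Each table lists 33984 RefSeq transcripts with count, FPKM and TPM, per the file headers. The authors' counts are raw whole numbers. The authors' TPM values, scaled by length and library, served for levels between genes, and the authors' FPKM values served as an alternative to them.

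For each of 24063 symbols, of which 5261 had more than 1 transcript, the transcript with the highest mean count was used. CPM are per TMM-normalised library size. Tests used edgeR 4.0.16 (R 4.3.3, limma 3.58.1), quasi-likelihood with robust fits, filterByExpr, a single fit of all 9 libraries and Benjamini-Hochberg adjustment over 14006 genes. The fit was also run on simulated data, with few changed genes and the same spread for every gene. That setting differs from these data, so the run does not show how the fit does here. The SE of a log2 fold change was derived from the F statistic, and 95% intervals from that SE and the fit's degrees of freedom. The 37 genes that passed the filter had at least 274 counts in each library. No pair of libraries within a group was alike within sampling noise (chi-square at least 3.30 per degree of freedom).

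Replicate numbers are shared between groups. Same-numbered libraries of scramble and control deviated together (correlations of 0.17 to 0.48, highest for number 1), but control 3 also did with scramble 2 (0.242). Between 1C-MIM and the others the same-numbered correlations were 0.03 to 0.19, and nothing in the labels says what a number marks. The blocked fit changed no call between scramble and control.

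The genes, lists, tests and naming rule were chosen with earlier results of these data known. Every one of the 38 genes may be named; those given per library are the called genes with the largest changes, the 3 regulators and Nqo1, Txnrd1, Srxn1, Gsr and Slc7a11, and each further list gives up to 4 genes with the smallest p against control, plus Hmox1, Gclc and Gclm. No chance test of a list was made. Alternatives were other scalings, filters, tools (DESeq2 1.42.0, limma-voom) and transcripts, the compared groups alone, the replicate block, single libraries or the 3 numbered 1 left out, and stricter thresholds. Promoters came from RefSeq for GRCm38.p6, a different build from the authors', and are used as sequence only. Exon overlaps and transcripts came from GENCODE M21.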

Additional observations from a re-analysis of the deposited data

How the results depend on the processing

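No called gene among the 38 changed direction under any alternative. Leaving aside stricter thresholds, 17 of the 22 calls against control held in all 21 alternatives, with Gpx3, Me1, Prdx4, Srxn1 and Taldo1 lost in some, and 16 of the 18 against scramble held, with Prdx4 and Srxn1 lost in some. Without 1 library in turn, calls against control ranged from 8 to 12 higher and 10 to 13 lower, and over all genes from 5487 to 7195. Against scramble they ranged from 6 to 9 higher and 10 to 12 lower, and over all genes from 5267 to 7473. Between scramble and control, 0 to 3 of all genes were called, and 0 of the 37, and DESeq2 called 4 genes. The further redox lists had 68 to 90 calls. With the replicate block, 14 of the 37 were higher and 11 lower against control, where 52.8% of all genes were called. Against scramble 12 were higher and 11 lower with the block, beside 52.2% of all genes called. Whether the numbers pair these libraries is not known. Without the 3 libraries numbered 1, 17 were higher and 13 lower against control, with 56.5% of all genes called. Against scramble 14 were higher and 12 lower without them, with 55.2% of all genes called. Between scramble and control 96 genes were then called, 1 of them among the 37. At an adjusted p below 0.01, 7 of the 37 were higher and 10 lower against control, with 33% of all genes called. Against scramble 6 were higher and 10 lower at that threshold, with 31.6% of all genes called. Of the redox lists 52 genes were then called against control. With at least 1.5-fold, 0 were higher in either comparison, 4 were lower against control and 3 against scramble, 26 of the redox lists were called, and 2257 genes in all against control and 2094 against scramble. These are stricter rules by construction, and for the other settings the cause was not tested. With TGANNNNGC in place of TGACNNNGC, 47.06% of the genes with a promoter held the motif, beside 45.05% of all genes. Ranks and the share of Fth1 did not change with FPKM. Within a library FPKM and TPM differ by a constant factor, so the share could not change and this is no check of it. At 3 libraries a group, differences of the size of Nfe2l2's may be called or not depending on the libraries used. Libraries of 1 cell line cannot speak for muscle at large.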
